A study of Mus musculus with 185 samples.

Results

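The hippocampus of mice fasted for 24 h was compared with that of mice kept on chow, over 16 columns of read counts, 8 from chow mice and 8 from fasted mice. They were chosen from 185 columns in the whole series and from 95 columns of the 24 h experiment, of which 91 held at least 1000000 counts. The column headings named the mouse but not the brain region. For each mouse the column with the highest mean log2(CPM + 1) of 4 genes of dentate granule cells (C1ql2, Lct, Dsp and Iyd) was therefore taken as the hippocampus, provided that it lay at least 1 above the mouse's next column. For these 4 genes CPM are counts per 1000000 counts of the column. For all other genes the divisor was the column's counts in the genes that passed the filter, times a scaling factor (TMM). This factor lay between 0.580, in chow mouse 1441, and 1.18, in fasted mouse 1453, over the 16 columns. The rule named a column in 8 of 9 chow mice and 8 of 10 fasted mice. The smallest margin among the chosen mice was 1.53, in mouse 1431, and the largest among those not chosen was 0.78, in mouse 1445. These 4 genes chose the columns and were left out of every test.

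The mice were male C57BL/6 J animals, 8 weeks old, housed singly with 3 days to settle, and for the last 24 h given either chow or no food, with water always present. Both groups were killed in the morning, between 9.17 and 11.3 h on the clock. RNA of the dissected left hippocampus was depleted of ribosomal RNA and sequenced as short paired reads, and non-coding genes were counted too. Body weight changed by between -0.386 and 3.46% in the chow mice and by between -21.4 and -17.8% in the fasted mice, so that the groups did not overlap. Each column was a separate mouse, dissected tissue was bulk RNA of all its cell types, and each group was a single sex, strain and age.

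The hippocampus is a cortical structure of the medial temporal region with dentate granule cells, pyramidal cells of the CA fields and interneurons, and is known for its part in memory and in the feedback control of the stress axis. Its neurons carry both corticosteroid receptors: the mineralocorticoid receptor, encoded by Nr3c2, which binds corticosterone at low levels, and the glucocorticoid receptor, encoded by Nr3c1, which is engaged as corticosterone rises. A liganded glucocorticoid receptor enters the nucleus and binds palindromic sites in DNA, and genes such as Fkbp5, Sgk1 and Per1 are well known targets. Food deprivation raises circulating corticosterone in mice, lowers insulin and leptin and moves the body's fuel from glucose to fatty acids and ketone bodies.

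The total count of the 16 columns lay between 4850726 and 35166415 in chow mice and between 11067533 and 57585862 in fasted mice. The marker C1ql2 lay between 9.67 and 104 CPM in chow and between 30.1 and 99.2 CPM in fasted mice, and Dsp between 9.53 and 116 CPM in chow and between 53.0 and 200 CPM in fasted mice. In 11 of the mice (5 chow and 6 fasted) the hippocampus library was labelled as passing quality control, and in the other 5 it was labelled as failing at alignment. All 5 were listed with an RNA concentration of 0 and a flowcell of the type SP, and the 11 others with type S2. By these labels the 16 columns mix separate sequencing runs, and the study set the SP run aside. The labels belong to libraries, and a column was matched to its library only through the mouse and the marker rule. Of these 5, 4 columns (chow 1441 and 1452, fasted 1424 and 1444) held fewer genes, between 14159 and 15738 expected in a draw of 500000 counts against between 17583 and 18793 in the 11 others, and mitochondrially encoded genes took between 18.3 and 24.8% of their counts against between 6.55 and 8.89%. The remaining one, chow mouse 1431, held 16707 genes in such a draw and 9.47% mitochondrial counts, and went against its label in its markers. C1ql2 was at 9.67 CPM there and reached 9.86 CPM in another column of the same mouse, the summed CPM of the CA1 pyramidal list was 153 against between 231 and 768 in the other 15 columns, and the sum of the thalamus list was 2915 against between 93.9 and 716. Every result is therefore given for 16 columns and, where stated, for the 11 columns of mice whose hippocampus library passed.

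With 16 columns, 151 of 19392 genes tested changed at an adjusted p under 0.05 (edgeR quasi-likelihood test with Benjamini-Hochberg adjustment), which is 0.779% of the genes. Of these, 97 rose with fasting (0.500%) and 54 fell (0.278%), and the median log2 fold change over all genes tested was 0.01. With the 11 columns, 1176 of 21956 genes changed (5.36%), with 616 higher (2.81%) and 560 lower (2.55%). With the first 3 digits of the mouse number as a block, 79 genes were called over 16 columns and 2 over 11. Over the 11 columns 1 of 4 such blocks holds both diets, so that diet and block can hardly be told apart there. Over the 16 columns all 4 hold both diets, but in some of them the diets also differ in library label. What these digits mark is not given in the sources used here. Of the 151 genes 146 were called in the same direction with 11 columns, and none was called in the opposite direction. Leaving out mouse 1431 alone gave 150 genes, 98 higher and 52 lower. Leaving out fasted mouse 1433, 1434 or 1435 or chow mouse 1443 gave 79, 98, 93 and 100 genes. The 5 columns of mice whose hippocampus library was labelled as failing (3 chow and 2 fasted) gave 0 of 16321 genes by edgeR. Before adjustment 908 of these genes had a p under 0.05. A fit of all 16 columns with that label of the mouse's library as a covariate gave 486 genes. In 112 of the 19392 genes (0.578%) no CPM value of 1 diet lay within the range of the other, and 79 of these were among the 151. In bulk tissue, fewer cells of a type and less RNA per cell cannot be told apart, and this holds for every gene named here.

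The gene with the largest rise among those named was Cdkn1a (ENSMUSG00000023067, GRCm39 chr17:29309936-29319701, plus strand), which encodes the cell cycle inhibitor p21. It had between 2.76 and 6.65 CPM in the 8 chow mice (median 4.37) and between 22.3 and 154 CPM in the 8 fasted mice (median 50.6). The lowest fasted mouse thus stood well above the highest chow mouse, with a log2 fold change of 3.74 (SE 0.38, adjusted p = 0.000214, edgeR), and of 3.28 (adjusted p = 0.000209) over the 11 columns. Hif3a (ENSMUSG00000004328, GRCm39 chr7:16764918-16796352, minus strand), a hypoxia-inducible factor subunit that can restrain its relatives, went from between 1.33 and 4.73 CPM (median 2.80) in chow to between 10.6 and 35.1 CPM (median 26.7) in fasted mice. The groups did not overlap, and the log2 fold change of Hif3a was 3.01 (SE 0.27, adjusted p = 7.09e-05, edgeR). Sult1a1, a phenol sulfotransferase, had between 2.86 and 5.31 CPM in chow and between 9.75 and 43.2 CPM in fasted mice, without overlap, with a log2 fold change of 2.33 (SE 0.32, adjusted p = 0.00142, edgeR). Lao1, an L-amino acid oxidase gene, was near the limit of detection in chow mice, between 0 and 0.359 CPM, and lay between 1.07 and 3.01 CPM in fasted mice, with a fitted log2 fold change of 3.65 (adjusted p = 0.000223, edgeR) that depends on the prior count.

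Plin4, a coat protein of lipid droplets, had between 1.85 and 14.1 CPM in chow (median 7.30) and between 33.5 and 107 CPM in fasted mice (median 62.8). Its log2 fold change was 3.14 (SE 0.39, adjusted p = 0.000586, edgeR). Pnpla2, which encodes the lipase that starts the breakdown of stored triglyceride, went from between 10.3 and 18.6 CPM to between 22.3 and 121 CPM, with a log2 fold change of 1.94 (SE 0.30, adjusted p = 0.00377, edgeR). Mfsd2a, the transporter of lysophosphatidylcholine lipids at the blood-brain barrier and a member of the endothelial list, went from between 3.19 and 14.9 CPM to between 20.1 and 33.5 CPM, with a log2 fold change of 1.51 (SE 0.22, adjusted p = 0.00200, edgeR). None of these 3 genes overlapped between diets. They were named one by one, and of the 20 genes in the list of fatty acid oxidation and ketone use 1 rose (higher calls 0.500% of all genes). Angptl4, an inhibitor of lipoprotein lipase, rose by 2.04 on the log2 scale (SE 0.34, adjusted p = 0.00783, edgeR), and its groups overlapped only through fasted mouse 1424, at 0.793 CPM, one of the failing libraries.

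Further risers without overlap of the diets were genes of signalling and of membrane proteins. Sh2b2, an adaptor that binds the insulin receptor, went from between 1.98 and 4.04 CPM to between 5.90 and 19.4 CPM (log2 fold change 1.83). Arrdc2, an alpha-arrestin, went from between 6.03 and 11.1 CPM to between 19.9 and 67.6 CPM (log2 fold change 2.28). Kirrel2, an adhesion molecule of the immunoglobulin superfamily, went from between 2.69 and 7.44 CPM to between 11.6 and 19.4 CPM (log2 fold change 1.78). All 3 passed the test, with adjusted p of 0.000863 for Sh2b2, 0.000317 for Arrdc2 and 0.000271 for Kirrel2 (edgeR). Atp2c2, a calcium and manganese pump of the secretory pathway, was at between 0 and 1.24 CPM in chow and between 2.88 and 7.23 CPM in fasted mice, with a fitted log2 fold change of 2.88 (SE 0.36, adjusted p = 0.000739, edgeR). Maff, a small Maf transcription factor, rose from between 0.180 and 1.16 CPM to between 1.20 and 10.8 CPM (adjusted p = 0.00813, edgeR), and Card14, a scaffold protein of the NF-kappaB pathway, from between 0.266 and 1.31 CPM to between 1.45 and 5.99 CPM (adjusted p = 0.00175, edgeR). Tma16, a factor of ribosome assembly, went from between 7.70 and 10.6 CPM to between 17.9 and 33.0 CPM, with a log2 fold change of 1.29 (SE 0.14, adjusted p = 0.000223, edgeR).

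**Figure D1:**
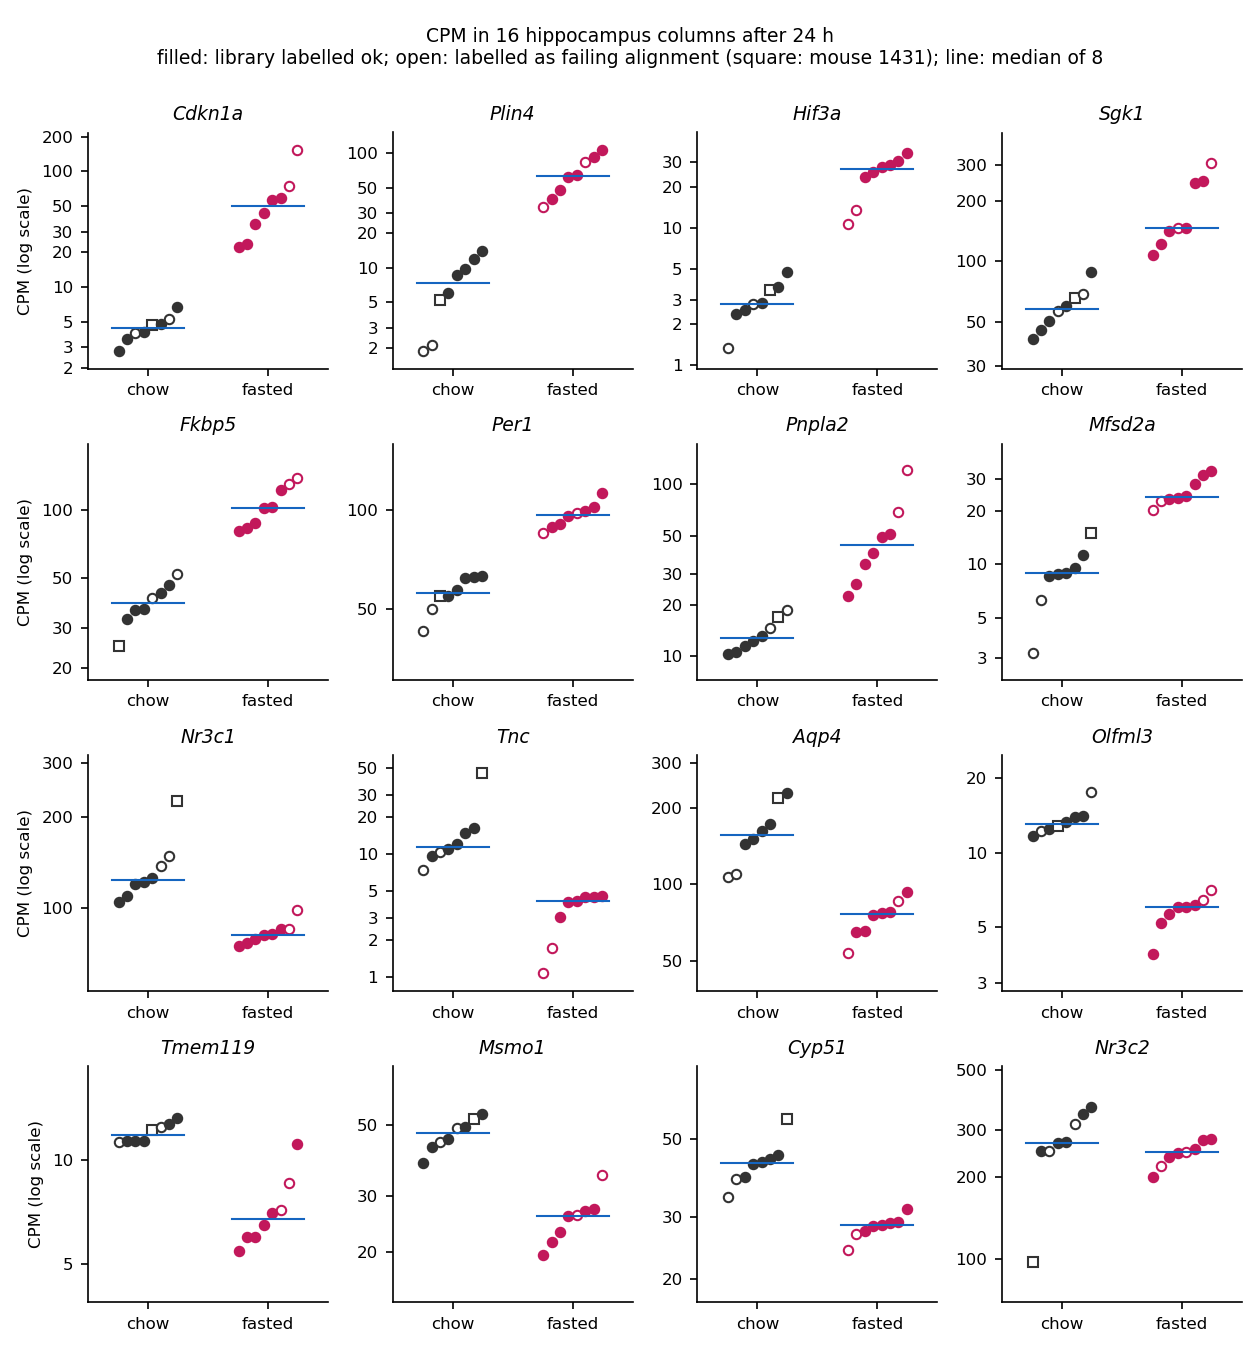
CPM on a log scale of named genes in the 16 hippocampus columns, by diet. Filled points are mice whose hippocampus library was labelled as passing, open points those labelled as failing alignment (the square is chow mouse 1431), and the line is the median of 8 mice. Cdkn1a and Hif3a stand apart between the diets in every mouse, with medians of 4.37 and 50.6 CPM for Cdkn1a.

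Of 24 genes known to respond to glucocorticoids, 14 rose with fasting over 16 columns and none fell. Higher calls were 0.500% of all genes tested. Their median log2 fold change was 1.09, against 0.01 over all genes. With 11 columns 20 of the 24 rose and none fell (higher calls 2.81% of all genes), with a median of 1.14. The summed CPM of the list was between 879 and 1508 in chow and between 1596 and 3795 in fasted mice, so that the diets did not overlap. Cdkn1a, Hif3a, Plin4, Sult1a1 and Arrdc2, described above, are members, as is Ddit4, an inhibitor of mTORC1. All 14 that passed were without overlap of the diets, as were 0.578% of all genes tested and 79 of the 151 called. All 24 had a positive log2 fold change in both sets. The list was drawn up with results of these mice known. Its counts, its sums and the lack of overlap are therefore no independent evidence of its direction.

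Fkbp5, the co-chaperone that lowers the affinity of the glucocorticoid receptor for its ligand (ENSMUSG00000024222, GRCm39 chr17:28618058-28737521, minus strand), had between 25.0 and 52.1 CPM in chow (median 38.8) and between 81.1 and 139 CPM in fasted mice (median 102). Every fasted mouse lay above every chow mouse, with a log2 fold change of 1.44 (SE 0.16, adjusted p = 0.000223, edgeR). Sgk1, a kinase that controls ion channels and transporters (ENSMUSG00000019970, GRCm39 chr10:21758083-21875802, plus strand), went from between 41.2 and 88.3 CPM (median 58.0) to between 107 and 309 CPM (median 146), with a log2 fold change of 1.62 (SE 0.23, adjusted p = 0.00171, edgeR). Per1, a component of the circadian clock with a known glucocorticoid response, went from between 42.8 and 62.8 CPM to between 85.1 and 113 CPM, with a log2 fold change of 0.79 (SE 0.09, adjusted p = 0.000317, edgeR). Both of these genes were also without overlap. Nfkbia, the inhibitor of NF-kappaB, rose by 1.56, Klf15, a transcription factor of amino acid and lipid metabolism, by 1.09, Errfi1, an inhibitor of EGF receptor signalling, by 1.07 and Mertk, a receptor for the engulfment of cell debris, by 0.94 on the log2 scale, and all 4 passed the test with no overlap between diets.

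Other members of the list passed the test only over the 11 columns. Mt1, a metallothionein, lay between 56.0 and 63.8 CPM in the 5 chow mice and between 102 and 161 CPM in the 6 fasted mice of these columns, a log2 fold change of 1.18 (adjusted p = 0.000109, edgeR). Over all 16 columns Mt1 reached 355 CPM in a chow mouse and the adjusted p was 0.572, with the same log2 fold change of 1.18. Fam107a, an actin-binding protein, had between 144 and 176 CPM in these chow mice and between 303 and 388 CPM in these fasted mice (log2 fold change 1.06, adjusted p = 8.87e-05, edgeR), and its adjusted p over 16 columns was 0.174. Tsc22d3, which encodes the glucocorticoid-induced leucine zipper protein, rose by 0.80 over the 11 columns (adjusted p = 0.012, edgeR). The metallothionein gene Mt2, the connexin gene Gjb6 and the transcription factor gene Zbtb16 also passed there. Pdk4, a brake on pyruvate oxidation, Map3k6, Nedd9 and the phosphatase gene Dusp1 passed in neither set, with log2 fold changes of 1.14, 0.86, 0.26 and 0.65 over the 11 columns. The columns left out for these values are those with fewer genes detected and a larger mitochondrial share, and mouse 1431.

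The receptors themselves did not rise. Of 10 genes for corticosteroid receptors and their chaperones none was higher, 1 was lower over 16 columns and 2 over 11 columns (lower calls 0.278 and 2.55% of all genes). Nr3c1 lay between 105 and 226 CPM in chow (median 124) and between 75.6 and 98.6 CPM in fasted mice (median 82.1), so that the diets did not overlap. Its log2 fold change was -0.72 (SE 0.14, adjusted p = 0.0191, edgeR), and -0.53 (adjusted p = 0.000284) over the 11 columns. The highest chow value of Nr3c1, 226 CPM, was that of mouse 1431, and the other chow mice lay at up to 149 CPM. Without fasted mouse 1433 its log2 fold change was -0.71 and its adjusted p 0.0511. Nr3c2 lay between 97.6 and 364 CPM in chow and between 201 and 276 CPM in fasted mice, and its log2 fold change of -0.14 (SE 0.19, adjusted p = 0.999, edgeR) did not pass the test. The lowest Nr3c2 value was that of mouse 1431, and the other chow mice lay between 250 and 364 CPM.

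The 250 bases before the start of a gene are shown for 4 of the named genes with a motif there. Of these, Maff and Mettl4 are not in the glucocorticoid list, and Mettl4 fell with fasting. The promoters come from RefSeq with the build GRCm38.p6, which is not the build of the counts, and were matched by symbol for 16 of 26 genes of the rule and for 23 of 24 genes of the glucocorticoid list. On both strands 8 motifs were searched: the glucocorticoid response element GNACANNNTGTNC, the E-box CACGTG, the cyclic AMP response element TGACGTCA, the metal response element TGCNCNC, the FoxO site GTAAACA, the heat shock element GAANNTTCNNGAA, the D-box TTATGTAA and the sterol regulatory element TCACNCCAC. The 4 genes were taken by the rarest motif and then the lowest p, and the capitals mark the motif named for each. Sgk1 (GRCm38.p6 chr10:21993640-21993889, plus strand, 1 of 6 promoters listed for the gene) has a glucocorticoid response element at 176 to 188 bases before the start. Maff (chr15:79347270-79347519, plus strand, 1 of 3 promoters) has a cyclic AMP response element at 22 to 29 bases before the start. Mettl4 (chr17:94750020-94750269, minus strand) has a cyclic AMP response element at 65 to 72 bases before the start. Fkbp5 (chr17:28486150-28486399, minus strand) has an E-box at 164 to 169 bases before the start.
Sgk1: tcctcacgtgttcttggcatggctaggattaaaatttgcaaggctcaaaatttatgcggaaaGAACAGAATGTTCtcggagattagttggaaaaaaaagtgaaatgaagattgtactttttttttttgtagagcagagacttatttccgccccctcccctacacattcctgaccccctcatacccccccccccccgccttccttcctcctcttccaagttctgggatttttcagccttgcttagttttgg
Maff: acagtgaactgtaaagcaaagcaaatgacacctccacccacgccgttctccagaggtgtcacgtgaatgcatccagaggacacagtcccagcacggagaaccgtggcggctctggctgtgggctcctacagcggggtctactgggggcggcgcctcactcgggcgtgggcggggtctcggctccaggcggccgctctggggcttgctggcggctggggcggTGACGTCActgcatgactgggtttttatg
Mettl4: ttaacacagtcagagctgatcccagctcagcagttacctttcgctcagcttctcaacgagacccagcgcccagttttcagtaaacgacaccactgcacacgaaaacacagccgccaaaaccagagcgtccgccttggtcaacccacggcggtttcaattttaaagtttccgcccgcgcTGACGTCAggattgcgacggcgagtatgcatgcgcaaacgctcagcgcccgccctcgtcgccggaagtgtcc
Fkbp5: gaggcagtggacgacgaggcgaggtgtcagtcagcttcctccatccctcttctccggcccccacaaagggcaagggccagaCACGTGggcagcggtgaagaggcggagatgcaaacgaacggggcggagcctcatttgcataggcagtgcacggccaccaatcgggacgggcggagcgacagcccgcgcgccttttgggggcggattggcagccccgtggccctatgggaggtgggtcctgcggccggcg

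Over all 32851 promoters of 27025 genes, 0.387% held the glucocorticoid response element, and 0.44% of genes did in at least 1 promoter. Of the 16 genes of the rule with a promoter 1 held it, Sgk1. In the glucocorticoid list 4 of 23 genes held it. Besides Sgk1 these were Mt1, with GGACATGATGTTC at 82 to 94 bases before the start, Fam107a, with GGACATGGTGTTC at 106 to 118 bases, and Map3k6, which encodes a kinase of the stress-activated cascade, with GCACAGGCTGTTC at 169 to 181 bases. The E-box was in 5 of 23 genes of the list and in 6.86% of all genes, the cyclic AMP response element in 2 of 23 and 1.77% of all genes, and the short metal response element in 17 of 23 and 47.2% of all genes. The FoxO site was in 1 of 23 genes (3.54% of all), and these letters of the heat shock element and of the D-box were in none of the 23 windows (0.514 and 0.977% of all genes). A match is a description of the letters only. The list holds known responders and was drawn up with results of these mice known. Its share of matches is therefore no evidence about these mice.

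Genes of cholesterol synthesis were lower in fasted mice. Of 18 genes in the sterol list, 4 fell over 16 columns (lower calls 0.278% of all genes) and 16 fell over 11 columns (2.55%), none rose, and all 18 had a negative log2 fold change in both sets. The median log2 fold change was -0.45 over 16 columns and -0.58 over 11. The summed CPM of the list was between 723 and 996 in chow and between 590 and 760 in fasted mice over 16 columns, and between 847 and 995 and between 590 and 672 CPM over 11. The sums overlapped between diets over 16 columns and did not over 11.

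Msmo1, a sterol C4-methyl oxidase (ENSMUSG00000031604, GRCm39 chr8:65170603-65186830, minus strand), had between 38.0 and 54.1 CPM in chow (median 47.1) and between 19.6 and 34.9 CPM in fasted mice (median 26.0). The diets did not overlap, and the log2 fold change was -0.87 (SE 0.12, adjusted p = 0.00100, edgeR). Cyp51, the lanosterol demethylase, went from between 34.3 and 57.2 CPM to between 24.2 and 31.6 CPM, also without overlap, with a log2 fold change of -0.61 (SE 0.10, adjusted p = 0.00540, edgeR). Sqle, squalene epoxidase, fell by 0.64 (adjusted p = 0.0178, edgeR) with overlapping diets, and its lowest chow value, 29.4 CPM, came from the failing library of mouse 1452. Stard4, a carrier of sterols in the cytosol outside the list, fell by 0.90 on the log2 scale (SE 0.15, adjusted p = 0.00687, edgeR), from between 14.3 and 31.0 CPM to between 9.16 and 12.1 CPM. In the promoters of 12 of the 18 genes the letters TCACNCCAC were found in 1, that of Hmgcs1, and in 1.22% of all genes.

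All 17 genes in the list of chaperones and stress genes of the endoplasmic reticulum had a negative log2 fold change in both sets, with a median of -0.37 over 16 columns and -0.41 over 11, and 1 of 17 and 9 of 17 passed the test as lower (0.278 and 2.55% of all genes). Pdia6, a protein disulfide isomerase, went from between 33.2 and 57.9 CPM to between 23.8 and 38.2 CPM, a log2 fold change of -0.62 (SE 0.12, adjusted p = 0.0212, edgeR), with overlap of the diets. Hspa5, the main chaperone of the compartment, had between 127 and 182 CPM in chow and between 80.0 and 122 CPM in fasted mice of the 11 columns, a log2 fold change of -0.65 (adjusted p = 0.0102, edgeR), and -0.61 (adjusted p = 0.193) over 16. Of 15 heat shock genes 1 fell over 16 columns, Chordc1, a co-chaperone of Hsp90, by 0.55 (adjusted p = 0.0239, edgeR), and 4 fell over 11. The call of Chordc1 was lost without fasted mouse 1433, 1434 or 1435 (adjusted p between 0.0502 and 0.0587), and that of Pdia6 without chow mouse 1432 or 1443 or fasted mouse 1433, 1434 or 1454 (adjusted p between 0.0502 and 0.0586).

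**Figure D2:**
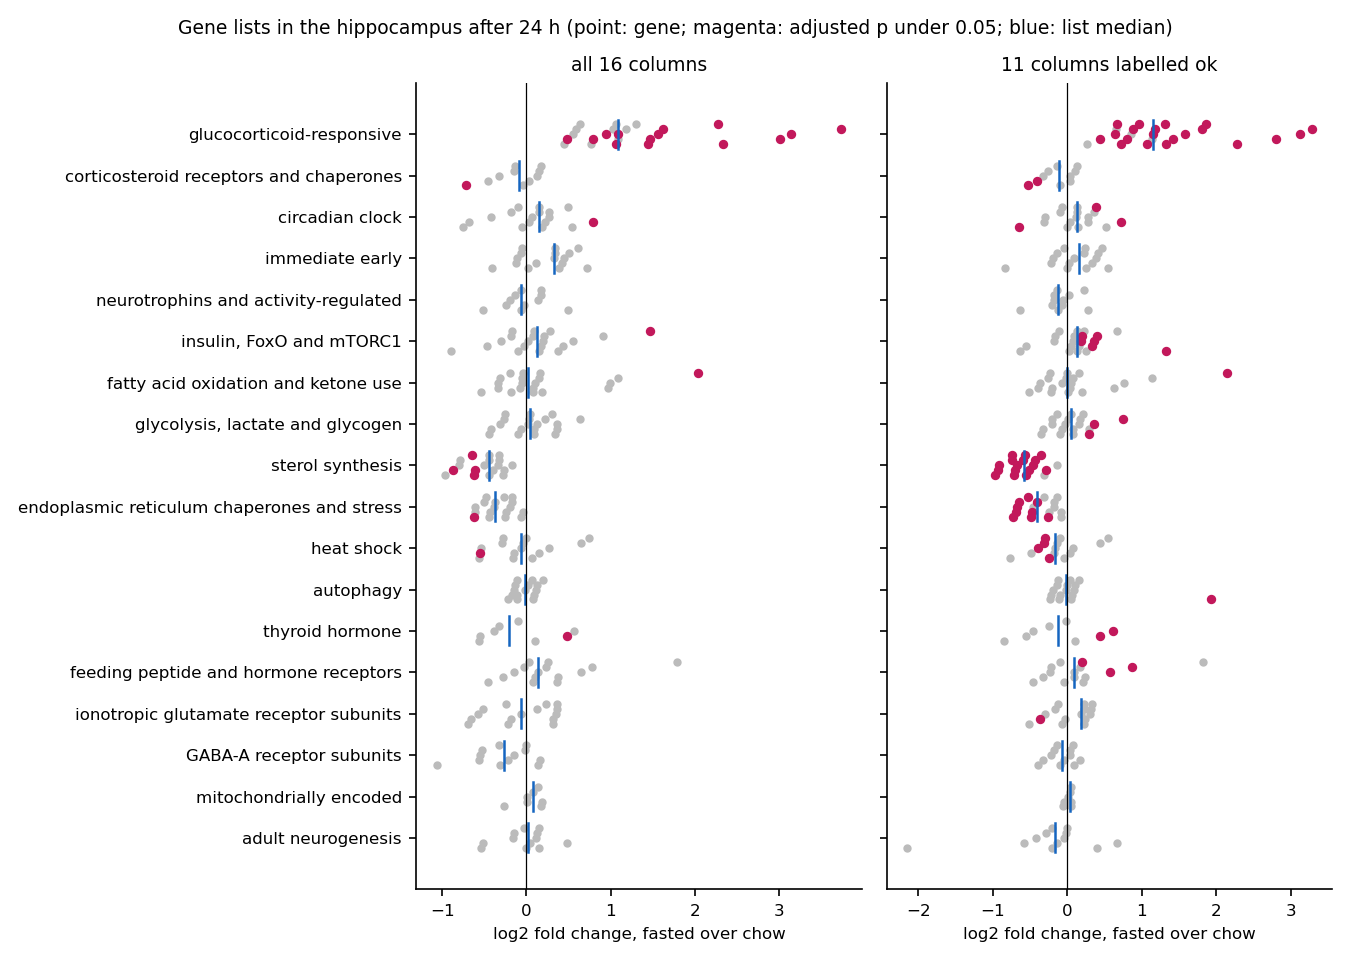
Log2 fold change (fasted over chow) of each gene of the lists in the hippocampus after 24 h, over 16 columns and over 11 columns. Each point is a gene, magenta points passed at an adjusted p under 0.05 and the blue mark is the list median. The glucocorticoid list has medians of 1.09 and 1.14, and the sterol list of -0.45 and -0.58.

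In the pathway of insulin, FoxO and mTORC1, 1 of 20 genes tested rose over 16 columns and 6 of 21 over 11, and none fell, where higher calls were 0.500 and 2.81% of all genes. Ddit4, an inhibitor of mTORC1 and also a member of the glucocorticoid list, went from between 27.7 and 60.8 CPM to between 63.3 and 223 CPM, with a log2 fold change of 1.47 (SE 0.28, adjusted p = 0.0193, edgeR). Over the 11 columns the insulin receptor gene Insr rose by 0.20 and the adaptor Irs2 by 0.36 on the log2 scale, both past the test. Of 20 genes of fatty acid oxidation and ketone use, Angptl4 was the 1 called in either set, and of 19 glycolysis genes none was called over 16 columns and 3 rose over 11 (2.81% of all genes). Slc2a1, the glucose transporter of the blood-brain barrier, was 1 of the 3, between 44.3 and 64.5 CPM in chow and between 77.5 and 108 CPM in fasted mice of the 11 columns (log2 fold change 0.75, adjusted p = 0.00292, edgeR). Of 15 receptors for feeding peptides and hormones tested, none was called over 16 columns and 3 rose over 11, against 2.81% of all genes (Insr, the adiponectin receptor gene Adipor2 by 0.87 and the receptor of melanin-concentrating hormone Mchr1 by 0.58). Mc4r, the melanocortin receptor that restrains feeding, had between 0.683 and 4.61 CPM in chow and between 2.44 and 5.28 CPM in fasted mice, and its log2 fold change of 0.37 (SE 0.30, adjusted p = 0.908, edgeR) did not pass.

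Of 17 clock genes Per1 rose over 16 columns, where higher calls were 0.500% of all genes. Over 11 columns Npas2 rose too, by 0.39, while Dbp, an output gene of the clock, fell by 0.65 on the log2 scale (adjusted p = 0.0206, edgeR). Over the 11 columns higher calls were 2.81% and lower calls 2.55% of all genes. Klf9, a transcription factor known to respond to thyroid hormone and to glucocorticoids, went from between 179 and 233 CPM to between 237 and 344 CPM, a log2 fold change of 0.49 (SE 0.10, adjusted p = 0.0202, edgeR), lost without chow mouse 1432 or 1443 or fasted mouse 1433 (adjusted p between 0.0531 and 0.0575). Of 16 autophagy genes Depp1 rose over the 11 columns, and of 15 glutamate receptor subunits Gria4 fell there. No gene was called in either set of columns in the lists of immediate early genes, neurotrophins and activity-regulated genes, GABA-A receptor subunits, mitochondrially encoded genes or adult neurogenesis. Of the 13 mitochondrially encoded genes 7 were tested. Fos, the best known immediate early gene, lay between 3.88 and 6.20 CPM in chow and between 1.75 and 13.2 CPM in fasted mice (log2 fold change 0.45, adjusted p = 0.855, edgeR), and Bdnf, a neurotrophin, between 18.4 and 58.1 and between 28.1 and 50.5 CPM (log2 fold change -0.07, adjusted p = 0.999, edgeR). A p that misses the threshold does not show that these genes were alike between diets.

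Aqp4, the water channel of astrocyte end feet, lay between 107 and 228 CPM in chow (median 156) and between 53.5 and 93.0 CPM in fasted mice (median 76.2). The groups did not overlap, and the log2 fold change was -1.12 (SE 0.17, adjusted p = 0.00226, edgeR). It was the only 1 of 10 astrocyte markers called over 16 columns, where lower calls were 0.278% of all genes. Over 11 columns the connexin gene Gja1 fell too, by 0.37, and the connexin gene Gjb6 rose by 0.67 on the log2 scale, against 2.55% of all genes called lower and 2.81% called higher. The median log2 fold change of the 10 markers was 0.08 over 16 columns and 0.06 over 11, with 6 positive in each, and their summed CPM was between 4483 and 6245 in chow and between 4916 and 6219 in fasted mice.

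Olfml3, a secreted matrix protein made by microglia in the brain (ENSMUSG00000027848, GRCm39 chr3:103629538-103645322, minus strand), had between 11.6 and 17.5 CPM in chow (median 13.0) and between 3.92 and 7.10 CPM in fasted mice (median 6.05). The diets did not overlap, and the log2 fold change was -1.21 (SE 0.13, adjusted p = 0.000236, edgeR). Of 12 microglial markers 2 fell over 16 columns (Tmem119 by 0.74 and Sall1 by 0.62) and 4 over 11, where lower calls were 0.278 and 2.55% of all genes. None was called higher. In each set 9 of the 12 had a negative and 3 a positive log2 fold change, and the median was -0.47 and -0.43. The purinergic receptor P2ry12 was 1 of the 4, between 17.6 and 26.4 CPM in chow and between 8.48 and 15.6 CPM in fasted mice of the 11 columns (log2 fold change -0.85, adjusted p = 0.0125, edgeR). The summed CPM of the 12 markers was between 227 and 255 in the 5 chow mice and between 165 and 215 in the 6 fasted mice of the 11 columns, and between 227 and 309 and between 165 and 283 over all 16. Fcrl2, an Fc receptor-like gene of microglia, and Unc93b1, which escorts Toll-like receptors to endosomes, fell by 1.00 (adjusted p = 0.0218) and 0.71 (adjusted p = 0.0288, edgeR). Tmem119 lost its call without fasted mouse 1433, 1435 or 1454 (adjusted p between 0.0505 and 0.0575), Fcrl2 without fasted mouse 1433 or 1435 (adjusted p between 0.0528 and 0.0578), and Sall1 and Unc93b1 each without any 1 of 8 mice (adjusted p of up to 0.0703 and 0.0768). All 4 were called over the 11 columns.

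Other genes that fell with no overlap of the diets were Tnc, Serpinb1a, Adcy8 and Mettl4. Tnc, the matrix glycoprotein tenascin C, lay between 7.42 and 45.1 CPM in chow and between 1.09 and 4.59 CPM in fasted mice, and its log2 fold change of -2.18 (SE 0.38, adjusted p = 0.0104, edgeR) was -1.61 (adjusted p = 0.000142) over the 11 columns. Serpinb1a, an inhibitor of proteases of white blood cells, lay between 4.94 and 19.0 CPM in chow and between 0.877 and 3.70 CPM in fasted mice, with a log2 fold change of -1.94 (SE 0.34, adjusted p = 0.0104, edgeR). Adcy8, a calcium-stimulated adenylyl cyclase, had a log2 fold change of -1.22 (SE 0.26, adjusted p = 0.0302, edgeR), with between 20.9 and 83.3 CPM in chow and between 11.0 and 18.7 CPM in fasted mice. The highest chow values of Tnc and Adcy8 were those of mouse 1431, and the other chow mice lay at up to 16.4 CPM for Tnc and 40.3 CPM for Adcy8. The call of Adcy8 was lost on leaving out any 1 of 9 mice (adjusted p between 0.0501 and 0.0704) and stood over the 11 columns (log2 fold change -0.95, adjusted p = 0.00689). Mettl4, a methyltransferase-like protein, went from between 24.8 and 32.0 CPM to between 13.3 and 18.7 CPM, with a log2 fold change of -0.68 (SE 0.09, adjusted p = 0.00121, edgeR).

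Markers of the cells and regions that the tissue could hold were listed beside these results. No marker of dentate granule cells outside the rule, of CA1, of CA2 and CA3, of interneurons, of oligodendrocyte progenitors, of ependyma, of blood, of striatum or of hypothalamus was called in either set of columns. Of the 10 hypothalamus markers only 1 was tested over 16 columns and 3 over 11. Prox1, the transcription factor of dentate granule cells, lay between 188 and 258 CPM in chow and between 95.1 and 316 CPM in fasted mice, with a log2 fold change of -0.00 (edgeR). The sum of the thalamus list was between 120 and 2915 CPM in chow and between 93.9 and 227 CPM in fasted mice, and between 156 and 500 and between 93.9 and 207 CPM over the 11 columns, where 3 of its 6 markers were called lower, against 2.55% of all genes. Over the 11 columns 2 of 4 markers of the colliculi and 1 of 7 of the neocortex, Rorb, were also lower. Slc17a6, the vesicular glutamate transporter of thalamus and midbrain, lay between 6.07 and 82.2 CPM in chow and between 3.59 and 12.4 CPM in fasted mice of the 11 columns (log2 fold change -2.35, adjusted p = 0.0246, edgeR). It lay between 6.07 and 320 CPM in chow over 16 columns and did not pass there (log2 fold change -2.83, adjusted p = 0.0785). The part of neighbouring tissue in the genes that fell was not tested.

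The choroid plexus sum differed among mice of both diets. It lay between 66.1 and 7650 CPM in chow and between 46.9 and 8347 CPM in fasted mice of the 11 columns, with the highest value in fasted mouse 1453, and no gene of its list was called. The endothelial list of 16 genes had 1 riser, Mfsd2a, in each set, and 6 genes that fell over 11 columns and none that fell over 16. Higher calls were 0.500 and 2.81% and lower calls 0.278 and 2.55% of all genes over 16 and 11 columns. Among the 6 was the tight junction gene Cldn5, lower by 0.53 on the log2 scale (adjusted p = 0.0094, edgeR). In the list of meninges 2 markers fell over the 11 columns, the collagen gene Col3a1 by 1.94 and the proteoglycan gene Lum by 1.92, at CPM under 8. Of 10 markers of mature oligodendrocytes, Opalin, a sialylated myelin protein, fell by 1.37 (SE 0.30, adjusted p = 0.0419, edgeR), with overlapping diets, and lost its call on leaving out any 1 of 12 mice (adjusted p of up to 0.0932). Opalin was called over the 11 columns (log2 fold change -1.32, adjusted p = 0.0324), while the sum of the 10 markers overlapped, between 2278 and 6562 CPM in chow and between 2176 and 6016 CPM in fasted mice.

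**Figure D3:**
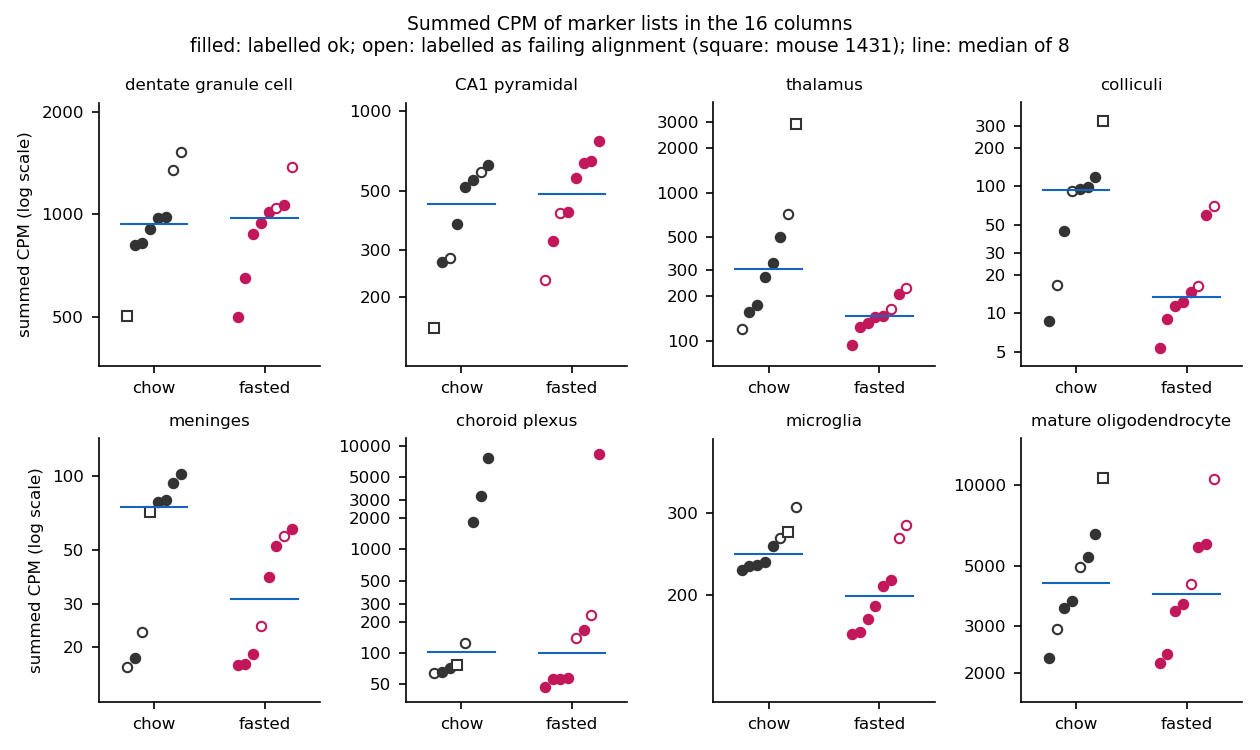
Summed CPM on a log scale of marker lists in the 16 columns by diet. Filled points are mice labelled as passing, open points mice labelled as failing alignment (the square is chow mouse 1431), and the line is the median of 8. Mouse 1431 stands highest for thalamus, at 2915 CPM, and lowest for CA1, at 153 CPM.

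A shorter fast of 16 h was measured in other mice, housed in pairs, with 4 chow and 5 fasted hippocampus columns by the same rule. The diet was assigned by cage there, so that some mice of a diet shared a cage. Each mouse was counted on its own, with no term for the cage, here and in the test of 24 h against 16 h. Of 22101 genes tested there, 0 were called (0%, edgeR). Before adjustment 835 had a p under 0.05, the lowest adjusted p was 0.943, and DESeq2 also called none. Leaving out 1 mouse moved the 835 to 2307 without fasted mouse 10, to 1330 without chow mouse 2, and to between 473 and 481 without fasted mouse 9 or 12 or chow mouse 1 or 6, and called 0 each time. Body weight had changed by between -6.49 and -1.30% in those fasted mice and by between -1.21 and 5.13% in those chow mice. Fast length, its start on the clock, housing, read length and sequencing run changed together between the experiments and cannot be told apart. Hemisphere differed too, with hippocampus libraries labelled left at 24 h and left or right at 16 h. For the genes called at 24 h, the values at 16 h were given side by side. Of 94 risers with a value at 16 h, 81 had a positive log2 fold change there (49.9% of all genes did), with a median of 0.16 against 1.09 at 24 h, and of 54 fallers, 47 were negative (50.1% of all genes), with a median of -0.16 against -0.75.

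The fasting effect of 2 of 23476 genes (0.00852%) differed between 24 h and 16 h in a test of the difference itself (edgeR interaction term), and both were larger at 24 h. Cdkn1a lay between 3.60 and 8.16 CPM in chow and between 3.59 and 6.07 CPM in fasted mice at 16 h, a log2 fold change of -0.29, and its difference between experiments was 4.06 (SE 0.54, adjusted p = 0.00218). Tma16 had a log2 fold change of 0.09 at 16 h and differed by 1.21 (SE 0.20, adjusted p = 0.0403). Leaving out each of the 25 mice in turn kept the call of Cdkn1a every time (adjusted p of up to 0.0117) and lost that of Tma16 17 times (adjusted p of up to 0.13), and the count then lay between 1 and 8, the highest without chow mouse 1441. Fkbp5 had a log2 fold change of 0.44 at 16 h, with between 31.1 and 55.7 CPM in chow and between 45.9 and 68.5 CPM in fasted mice, and its difference of 1.02 (95% interval 0.46 to 1.58) did not pass the test (adjusted p = 0.496). The difference of Hif3a, 2.13 (interval 1.32 to 2.94), missed it more narrowly (adjusted p = 0.0662).

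Without the mice of failing libraries the fasting effect of 45 of 23336 genes (0.193%) differed, 37 of them higher (0.159%) and 8 lower (0.0343%). Hif3a was then among them (2.24, adjusted p = 0.00255), as were Mfsd2a and Sult1a1, and among the 8 lower were Aqp4, Tnc and Padi2, an enzyme that converts arginine in proteins to citrulline. Padi2 lay between 42.2 and 51.4 CPM in chow and between 15.2 and 23.6 CPM in fasted mice at 24 h over the 11 columns, a log2 fold change of -1.41 (adjusted p = 8.87e-05, edgeR), against -0.06 at 16 h. Padi2 was named after its values were seen.

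**Figure D4:**
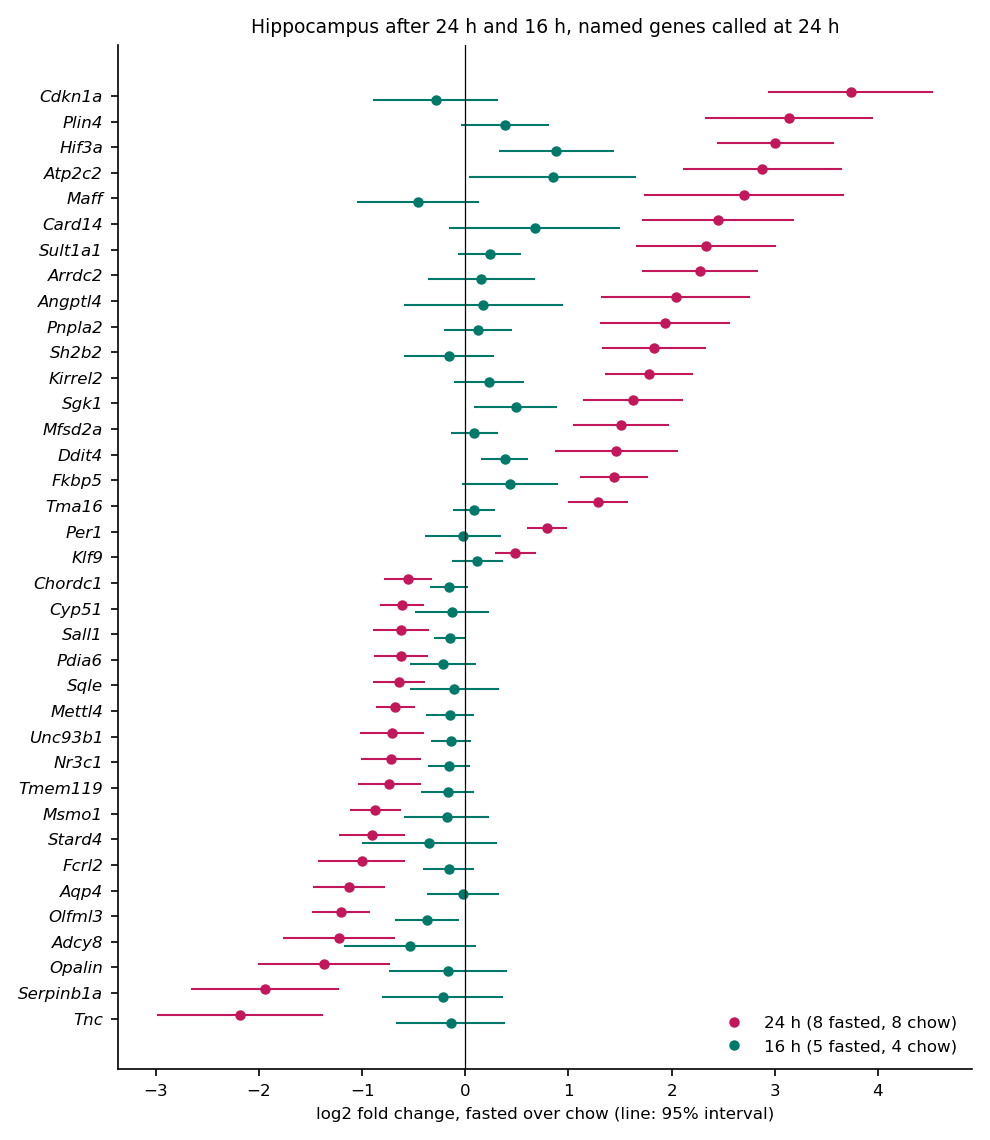
Log2 fold change (fasted over chow, lines are 95% intervals) of 37 named genes in the hippocampus after 24 h and after 16 h. The 24 h and 16 h mice are separate animals, and Cdkn1a is at 3.74 after 24 h and at -0.29 after 16 h.

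The hippocampus was also set against 62 other columns of the same 16 mice, which hold hypothalamus, colliculi and zona incerta tissue by the labels. The test asked whether the fasting effect differed between the hippocampus column of a mouse and the mean of its other columns (limma on the difference within each mouse). It called 0 of 19392 genes (0%). Before adjustment 617 genes had a p under 0.05, and after it Atp2c2 came nearest, at 0.0800, and was called without fasted mouse 1453 (adjusted p = 0.0386). On the scale of this test, the difference in mean log2 CPM between diets, Atp2c2 was at 3.04 in the hippocampus and at 0.38 in the other columns. Over the 11 columns it called 2 of 21956 genes (0.00911%), 1 in each direction (0.00455%). Hr, a nuclear corepressor that responds to thyroid hormone, lay between 19.5 and 40.6 CPM in chow and between 12.8 and 31.5 CPM in fasted mice in these hippocampus columns, and its fasting effect was lower there than in the other columns by 1.80 on the log2 scale (adjusted p = 0.0390, limma). Rtp1, a protein that brings olfactory receptors to the cell surface, was at between 0 and 0.0313 CPM in chow and between 0.378 and 1.64 CPM in fasted mice, and its difference was 3.45 (adjusted p = 0.0468, limma), in a gene near the limit of detection.

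Of the 38 named genes that were called in the hippocampus, all 38 had a difference in mean log2 CPM of the same sign in the other columns, and 15 had a larger one there. On this scale Sgk1 was at 2.52 in the other columns and at 1.58 in the hippocampus, a difference of -0.93, Fkbp5 at 1.93 and 1.46 (-0.47) and Cdkn1a at 3.98 and 3.49 (-0.49). Among the genes that fell, Adcy8 was at -0.27 in the other columns and at -1.06 in the hippocampus, Nr3c1 at -0.28 and -0.66 and Msmo1 at -0.37 and -0.86. None of these differences passed the test over 16 columns, and the mice are the same in both, so that the values are not independent. The 38 genes were picked for their calls in the hippocampus columns. The share of all genes tested with the same sign in both was not computed, so these counts have no background beside them.

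**Figure D5:**
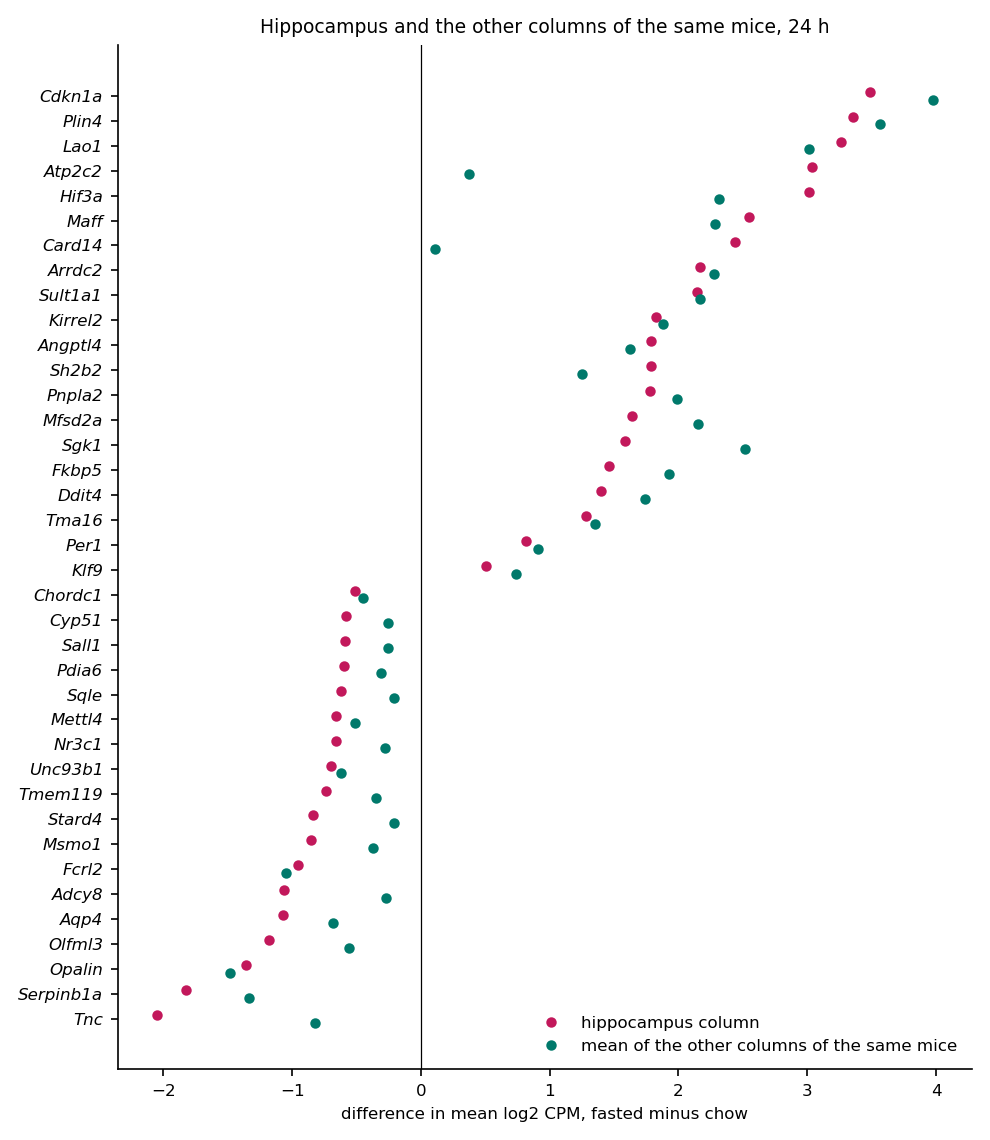
Difference in mean log2 CPM (fasted minus chow) after 24 h of the 38 called named genes in the hippocampus column and in the mean of the other columns of the same mice. All 38 pairs share a sign, in genes picked for their calls in the hippocampus. Atp2c2 is at 3.04 in the hippocampus and at 0.38 in the other columns.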

How the data were processed

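The authors deposited 1 table of read counts per gene (57010 rows, 56310 with a symbol, 185 columns) for rRNA-depleted libraries, made per the submitters' notes with bcl2fastq 2.20.0, STAR 2.7.3a and R 4.1.3 on GRCm39. The strand setting and annotation release are not given in the sources used here, so antisense and overlapping genes are uncertain. No row named no gene, and no 2 columns were identical. The deposited counts are not normalised, and CPM was computed from them. Column headings held the mouse only, 5 columns each, so regions were assigned by the marker rule of the report. Genes were filtered with filterByExpr, scaled by TMM and tested with edgeR 4.0.16 (quasi-likelihood, Benjamini-Hochberg adjusted p under 0.05) in R 4.3.3. DESeq2 1.42.0 and limma 3.58.1 (voom) were alternatives, and limma on log2 CPM with a prior count of 2 compared hippocampus with the other columns of each mouse. The tests were run on simulated counts without differences of sequencing run, library quality or region, so that check does not cover these. Named genes were the 12 protein-coding genes with the largest rise and fall among called genes whose diets did not overlap and whose mean log2 CPM was 1 or more, the 3 of lowest p in each direction, up to 3 called members of each list (or the most abundant), Fkbp5, Nr3c1, Nr3c2 and Mc4r, and up to 4 genes per direction of each test of a difference. Others named are list members or were named after their values were seen. The members, gene lists and tests were chosen with earlier results of these data known. A single column counts sampled reads, so that depth limits only low genes. The p-values measure the spread within each diet. Where columns of failing libraries are kept, this spread mixes differences between mice with those of sequencing run and library quality. In a principal component analysis of the chosen columns over 500 genes, the leading component held 76.7% of the variance. Mice 1441, 1452, 1424 and 1444, of failing libraries, lay between 40.8 and 78.3 on it. Mouse 1431, also of a failing library, was at 2.93 and the others between -27.8 and -17.4.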

Additional observations from a re-analysis of the deposited data

Results flagged for a closer look

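Mice far from the rest were looked for in the 63 named genes in each diet group of 8 mice, 126 groups in all. In 18 of them the highest or lowest mouse lay further from the others than Dixon's 95% critical value allows, where chance alone picks out about 1 in 20 groups, and 15 of the 18 were in mice whose hippocampus library was labelled as failing alignment. Chow mouse 1431 held the highest chow CPM of Arrdc2 (11.09, the others at up to 8.085), Tnc (45.11, up to 16.41), Adcy8 (83.33, up to 40.33), Nr3c1 (226.2, up to 149.3), Gad1 (390.0, up to 227.6), Pomc (26.48, up to 5.098) and Penk (53.87, up to 19.1). The same mouse held the lowest chow CPM of Lmo3 (38.34, the others from 97.82) and of Nr3c2 (97.58, the others from 250.2). Chow mouse 1452 had the highest chow value of Olfml3 (17.46 CPM, the others at up to 13.98) and the lowest of Sqle (29.35 CPM, the others from 39.84).

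Among fasted mice, 1444 was highest for Nr3c1 (98.59 CPM, the others at up to 85.61), and 1424 was lowest for Mettl4 (13.34 CPM, the others from 16.93), lowest for Angptl4 (0.7927 CPM, the others from 3.083) and highest for Gad1 (248.4 CPM, the others at up to 214.3). Fasted mouse 1453, whose library was labelled as passing, was highest for the choroid plexus gene Ttr (7112 CPM, the others at up to 191.7) and for Penk (57.33 CPM, up to 14.21) and lowest for Lmo3 (100.2 CPM, the others from 133.8). The cause of these values was not tested.

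A test of the difference itself passed for Cdkn1a and Tma16, whose fasting effect was larger at 24 h than at 16 h by 4.06 and by 1.21 on the log2 scale (edgeR interaction term, adjusted p = 0.00218 and 0.0403). Each experiment had its own mice, start on the clock, housing, choice of hemisphere and sequencing runs, which cannot be told apart from the length of the fast.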

How the results depend on the processing

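The count of 151 genes (97 higher, 54 lower) was 601 (308 and 293) by DESeq2, 268 (130 lower) at an adjusted p under 0.1, 1176 (616 and 560) over the 11 columns of passing libraries and 1918 (920 and 998) there by DESeq2. It was 74 (59 and 15) without mice 1423 and 1454, whose superior colliculus tubes were exchanged by the labels, 954 (469 and 485) over columns with at least 16000 genes in a draw, and 99 (33 lower) with a margin of 0.5. With RNA concentration as a covariate it was 389 (208 and 181), and with the quality label, chosen after seeing the data as was DESeq2 over 11 columns, 486 (269 and 217). Genes lower numbered 84 by limma voom and 31 with only a sum of counts over 10 required. Leaving out each mouse in turn gave between 79 and 164 genes, between 63 and 98 higher and between 16 and 75 lower. The lowest was without fasted mouse 1433, and without chow 1443 or fasted 1434 or 1435 it was 100, 98 and 93, and the count of lower genes was 32, 27 and 27, and 30 without fasted 1454. Another scaling, a margin of 2, clock time or the marker score as covariate and leaving out mitochondrial genes gave between 137 and 192. The 2 genes of the difference between 24 h and 16 h were 40 by DESeq2, 1 with a sum of counts over 10, 7 at an adjusted p under 0.1, 45 without failing libraries and between 1 and 8 on leaving out a mouse. The 0 genes of the difference from the other columns were 1 with a sum of counts over 10, 1 at an adjusted p under 0.1, 2 without failing libraries, 1 when the other columns also needed 16000 genes in a draw (both added after seeing the data), and between 0 and 1 on leaving out a mouse, with 1 without fasted mouse 1453. The 16 h count was 0 in all that was run. Of the 38 named genes that were called, 25 were called the same way under every alternative other than the blocks below and the failing libraries alone, and 28 on leaving out any mouse.

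Genes that did not pass changed sign as follows (log2 fold change). Over the 11 columns, by edgeR and by DESeq2, Egr3 was at -0.038 and -0.040, Ntrk2 at 0.020 and 0.018, mt-Co1 at -0.062 and -0.064, Ccnd2 at -0.038 and -0.042, Gad1 at 0.12 and 0.11, Hbb-bs at -0.22 and -0.22 and Penk at 0.44 and 0.42. With a margin of 0.5 Egr3 was at -0.046 and Pomc at 2.56, and with a margin of 2 Cnr1 was at -0.10, Prox1 at 0.083, Gad1 at 0.11, Bcas1 at 0.26 and Penk at 0.44. With at least 16000 genes in a draw mt-Co1 was at -0.19, Bok at -0.012 and Hbb-bs at -0.30. With the marker score Gad1 was at 0.054, Bcas1 at 0.16 and Penk at 0.20, with RNA concentration Prox1 at 0.0068, Ttr at 0.51, Hbb-bs at -0.064 and Penk at 0.029, and with the quality label Cnr1 at -0.021, Prox1 at 0.018 and Penk at 0.014. Prox1 was also at 0.011 with another scaling, 0.018 by DESeq2, 0.0095 with a sum of counts over 10 and 0.040 with clock time, Bcas1 at 0.077 without mice 1423 and 1454 and Hbb-bs at -0.16 by limma voom. On leaving out a mouse the ranges were -0.0022 to 0.22 for Egr3, -0.17 to 0.042 for Ntrk2, -0.058 to 0.26 for Sqstm1, -0.011 to 0.20 for Cnr1, -0.20 to 0.093 for Grin2b, -0.17 to 0.48 for mt-Co1, -0.10 to 0.11 for Prox1, -0.56 to 0.73 for Bok, -0.12 to 0.11 for Gad1, -0.46 to 0.17 for Bcas1, -4.46 to 0.55 for Ttr, -0.50 to 0.29 for Hbb-bs and -0.63 to 0.36 for Penk. The cause was not tested in any of these. The failing libraries alone gave 0 genes in each direction, with Ttr at 1.34 and Nr3c2 at 0.064. 

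The mice of the diets share no replicate number, but the first 3 digits of their numbers recur, and what these digits mark is not given in the sources used here. With them as a replicate block, chosen after seeing the data, 79 genes were called over 16 columns (58 higher and 21 lower), and 28 of the 38 named genes kept their call. Nr3c1, Serpinb1a, Adcy8, Tmem119, Angptl4, Sqle, Pdia6, Chordc1, Opalin and Sall1 did not, with adjusted p between 0.057 and 0.15 and the same sign. In this fit fasted mouse 1424, of a failing library, shares its block with passing chow mice 1422 and 1423. Chow mouse 1452, of a failing library, shares its block with passing fasted mice 1453, 1454 and 1455. Diet and library quality cannot be told apart within those blocks. Over 11 columns, where 1 of 4 blocks holds both diets, 2 genes were called, both higher (Mfsd2a and Hif3a), and 0 lower. Sign changes under the block were, over 16 columns, Cnr1 at -0.063, Prox1 at 0.082, Wfs1 at -0.072 and Bcas1 at 0.032, and over 11 columns, Ntrk2 at 0.049, Grin2b at 0.026, Ccnd2 at -0.072, Prox1 at 0.24, Gad1 at 0.21 and Bcas1 at 0.092. Total counts from 4850726 upwards limit what can be said of genes under about 1 CPM.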
